A study of Mus musculus with 24 samples.

Results

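Hif1a and 9 genes of glucose uptake, glycolysis and lactate handling were followed in bulk RNA-seq of BMDMs, macrophages grown from bone marrow, of WT and Irg1-/- mice. Members were the rows of the deposited count table whose Ensembl identifier, with its version removed, maps to Hif1a, Slc2a1, Hk2, Pfkfb3, Pfkp, Aldoa, Pgk1, Eno1, Ldha or Slc16a3 in GENCODE M21. All 10 were found among 22165 genes, and all 10 passed the filter on low counts that left 11878 genes for testing.

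The study examined whether itaconate, the product of the enzyme encoded by Irg1 (now Acod1), makes macrophages tolerant to late inflammasome activation. Each of the 8 groups was 1 genotype under 1 treatment, with 3 independent cultures, which gave 24 libraries. Unstim. cells received no LPS. LPS 3h cells (non-tolerized) went through the tolerization procedure without the first dose and then received LPS for 3 h. LPS 24h cells were harvested directly after 24 h with 100 ng/ml LPS. LPS 24h->LPS 3h cells (tolerized) received LPS for 24 h, rested for 1 h in fresh medium and received LPS again for 3 h. The procedure gave LPS 3h cells the fresh medium and the rest too, and neither is given for Unstim. or LPS 24h cells. In LPS 3h against Unstim. or LPS 24h, the LPS exposure therefore cannot be told apart from these. WT mice were C57BL/6N from Charles River Laboratories, and the Irg1-/- mice were also C57BL/6N. Marrow came from mice given as 8 to 20 weeks old in the labels, with a higher upper age in the study's methods, and was grown in M-CSF at 20 ng/ml for 7 days, so every group was exposed to M-CSF. The sources name no conditional allele for Irg1 and do not describe the WT mice as littermates of the Irg1-/- mice. The sources used here do not say how many mice gave the 3 cultures, so p-values measure the spread between cultures.

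Glycolysis splits glucose into pyruvate and yields ATP without oxygen, and macrophages exposed to LPS are known to turn to it and to release lactate. HIF-1α, encoded by Hif1a, is a transcription factor that is degraded when oxygen is plentiful, and it binds short DNA elements beside many glycolytic genes. The other members cover glucose import (Slc2a1), the first steps and their control (Hk2, Pfkfb3, Pfkp), later steps (Aldoa, Pgk1, Eno1) and the formation and export of lactate (Ldha, Slc16a3).

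Libraries held 3927378 to 20430359 reads counted on genes (median 11539056), and members held between 3551 reads (Pgk1) and 110657 reads (Hif1a) over all libraries. Levels are given as normalized CPM, the counts relative to a library total adjusted by edgeR's TMM factors, on the same scale in every library. The method reads the 3' ends of transcripts, so levels of different genes are not compared. Acod1 checked the genotype labels: after LPS it lay between 3794 and 28063 normalized CPM in the 9 WT libraries and between 1.58 and 26.4 in the 9 Irg1-/- libraries, and without LPS it was 5.82 to 11.9 in both genotypes. All 8 macrophage markers (Adgre1, Csf1r, Cd68, Itgam, Lyz2, Fcgr1, Mertk and Cd14) were found in every library. Of 21 markers of other cell types, 7 that define B cells, T cells, NK cells, erythroid cells and mast cells (Cd79a, Cd3e, Cd3d, Nkg7, Hbb-bs, Hba-a1 and Cpa3) never passed 1.70 normalized CPM. The summed level of the 21 was 430.5 to 695 normalized CPM in the Unstim. and LPS 3h groups and 143 to 330 in the groups exposed for 24 h, mostly through S100a8, S100a9, Col1a1, Col3a1 and Dcn. It thus moved with the length of exposure, and its part in the results was not tested. In bulk RNA, fewer cells of a type and less RNA per cell cannot be told apart. Pgk1, Aldoa, Eno1, Ldha and Gapdh have near-identical copies elsewhere in the genome. Reads without a unique alignment (15.1% to 22.5% of a library's column) were not counted on genes, which makes the levels of these genes uncertain.

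Some libraries stood apart before any test. WT LPS 24h replicate 3 was the lowest of its group for 7 of 10 members and WT LPS 24h->LPS 3h replicate 3 for 9 of 10. Irg1-/- LPS 24h replicate 3, the deepest library, was also the lowest of its group for 7 of 10. In WT LPS 24h replicate 3, mitochondrial genes took 0.709% of the counts, against 1.55% to 3.50% in the other 23 libraries, and the summed level of the macrophage markers was 3319 normalized CPM, the lowest of the 24. Irg1-/- Unstim. replicates 1 and 2 were shallow, with 4707752 and 3927378 reads. The sample descriptions carry a prefix with 4 values, whose meaning is not given. All Unstim. libraries carried prefix 4. WT cultures 1, 2 and 3 of every LPS group carried 1, 2 and 4. Among Irg1-/- cells, LPS 3h libraries carried 2 and 3, LPS 24h libraries carried 1 and LPS 24h->LPS 3h libraries carried 1 and 2. In Irg1-/- cells prefix and treatment therefore cannot be told apart for LPS 3h or LPS 24h against Unstim., nor for LPS 24h against LPS 3h.

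Judged by the threshold, the members fell into an early and a late pattern that was seen in both genotypes. Hif1a, Hk2, Pfkfb3, Pfkp and Slc2a1 rose within 3 h of LPS, and Slc16a3 rose more weakly. By 24 h Ldha, Eno1, Pgk1 and Slc16a3 stood above unstimulated cells, although Pgk1 overlapped with them in WT cells. Hk2 and Hif1a had come down from their level at 3 h. Pfkp overlapped with unstimulated cells again, and Pfkfb3 and Slc2a1 stood above them without overlap. The means of Pfkfb3 and Slc2a1 were higher at LPS 24h than at LPS 3h in both genotypes. Aldoa passed the threshold in none of these comparisons.

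**Figure D1:**
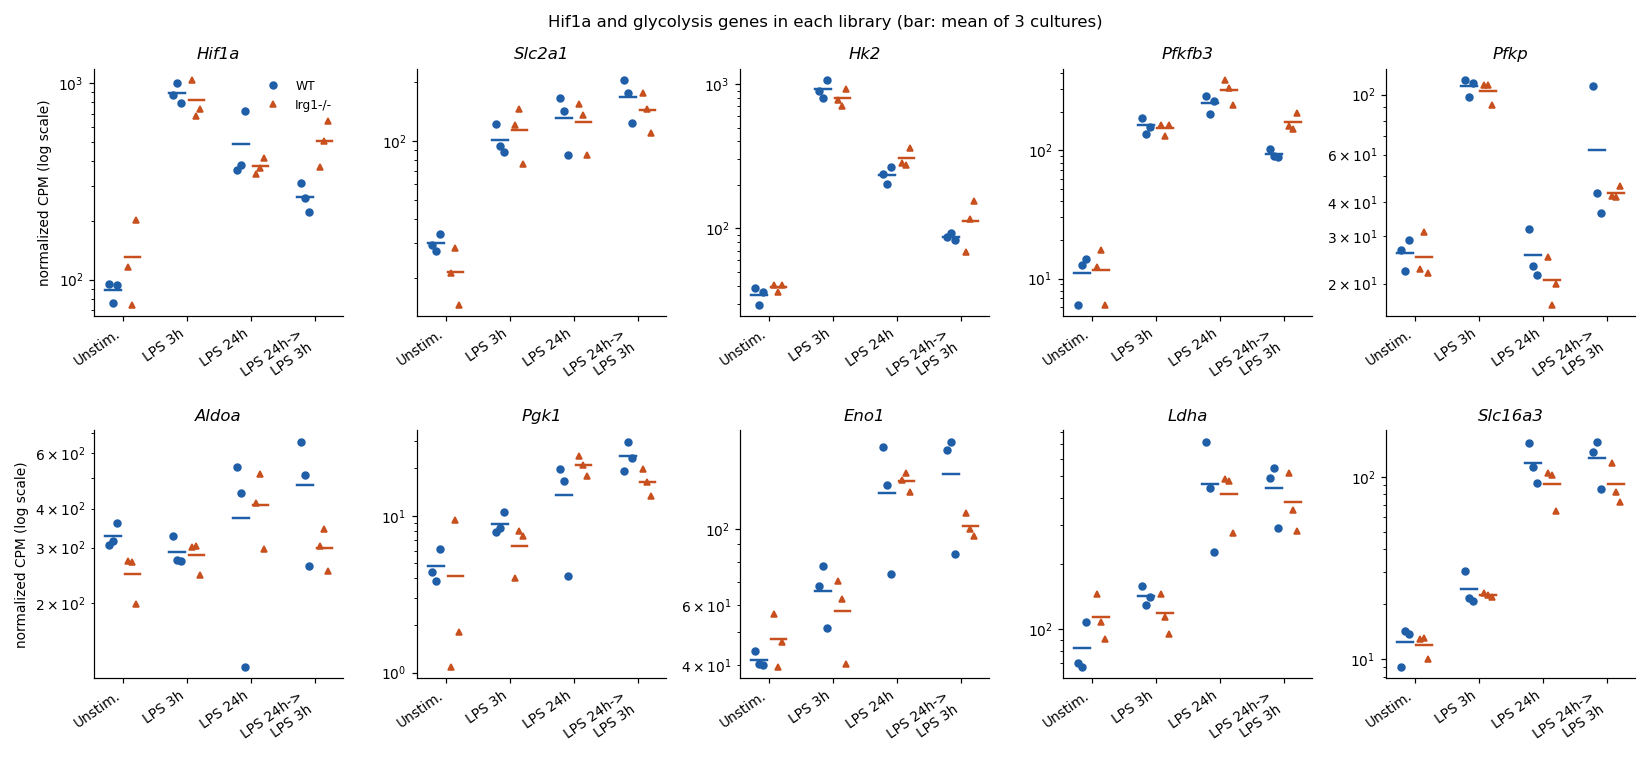
Normalized CPM on a log scale (y) of each member in the 4 treatments (x), with circles for WT and triangles for Irg1-/- cultures and a bar at the mean of 3. Hif1a, Hk2 and Pfkp are highest at LPS 3h, whereas Ldha and Slc16a3 are high in both groups exposed for 24 h.

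The test was edgeR's quasi-likelihood test, from 1 model of the 8 groups over all 24 libraries. Its p-values, with Benjamini-Hochberg adjustment across all 11878 genes and a threshold of 0.05, are the adjusted p-values given wherever no other test is named. At LPS 3h, 6 of 10 members rose in WT cells and none fell, while 15.8% of all genes tested rose and 16.3% fell. The same comparison in Irg1-/- cells gave 6 that rose and none that fell, beside 17.0% and 18.9% of all genes. The median log2 fold change of the members was 1.36 in WT and 1.47 in Irg1-/- cells, against -0.18 and -0.20 for all genes. DESeq2's Wald test called 8 members higher in WT cells, adding Eno1 and Ldha. With 1 culture left out at a time, edgeR called 5 to 7 members higher in each genotype.

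At LPS 24h, 8 of 10 members were above Unstim. in WT cells and none below, with 9.25% of all genes higher and 6.98% lower. Irg1-/- cells likewise gave 8 and none, beside 7.31% and 6.38%. Their median log2 fold changes were 2.30 and 2.14, while those of all genes lay at 0.00 in both genotypes. The WT count was also 8 without WT LPS 24h replicate 3, and it was 7 to 8 with 1 culture left out at a time. The Irg1-/- count was 7 without both shallow Unstim. libraries, and it was 5 with the label prefix as a term, where Pgk1 (2.09), Eno1 (0.68) and Ldha (1.15) missed the threshold.

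Between LPS 3h and LPS 24h, which also differed in fresh medium and rest, the members moved in both directions. In WT cells Eno1, Ldha and Slc16a3 rose, Hif1a, Hk2 and Pfkp fell, and 16.8% of all genes rose and 15.5% fell. In Irg1-/- cells Pfkfb3 and Pgk1 joined the genes that rose, which made 5 higher and 3 lower, beside 18.2% and 16.9% of all genes. With the label prefix as a term only 1 member, Slc16a3, was still higher in Irg1-/- cells.

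**Figure D2:**
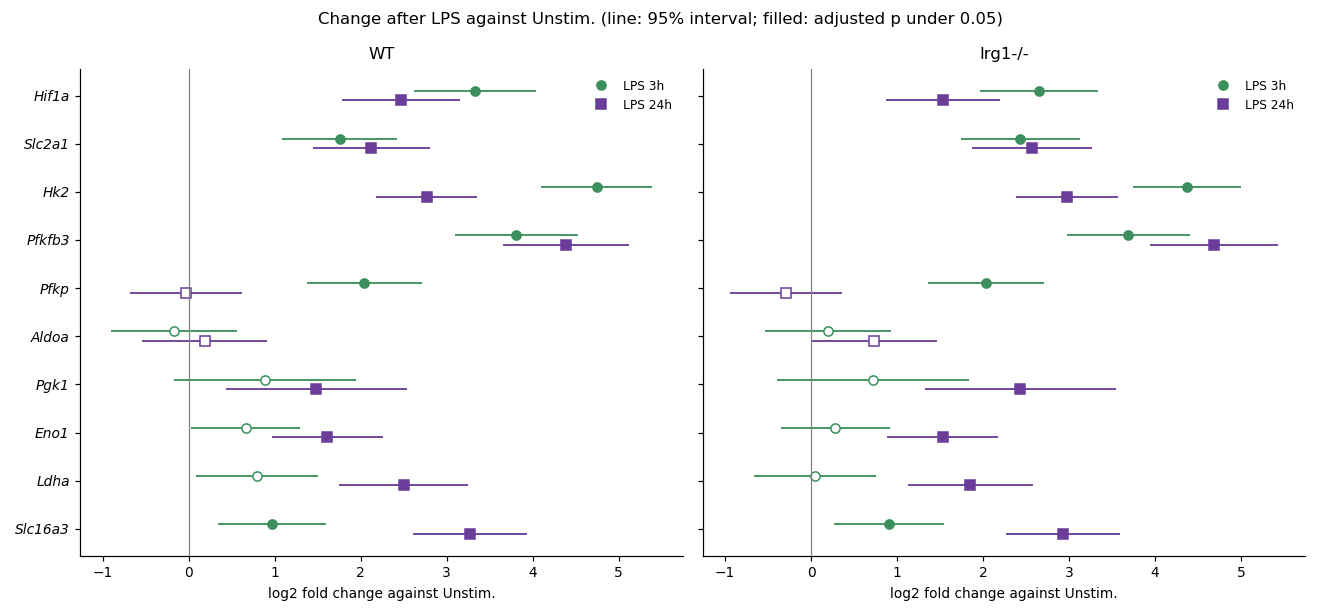
Log2 fold change against Unstim. (x) of each member (y) at LPS 3h (circles) and LPS 24h (squares), for WT on the left and Irg1-/- on the right, with lines for 95% intervals and filled symbols for adjusted p under 0.05. Hk2 has the largest change at LPS 3h (4.74 in WT) and Pfkfb3 at LPS 24h (4.39 in WT).

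Promoters of early and late members are shown to let the shared elements be seen. The HIF core element was searched as ACGTG or GCGTG, with the reverse complements CACGT and CACGC, in the RefSeq promoter table (GRCm38.p6), which holds 250 bases before and 50 bases after each of 32851 starts. The 10 members have 16 listed starts, of which 15 hold a match, and each member has at least 1 such start. Of all genes, 46.7% have at least 1 start with a match. Among all promoters 43.8% hold a match, and among the 9690 promoters with a GC content of 60% or more 69.2% do. Most GC-rich promoters therefore have the element. Member promoters had a GC content of 52.7% to 73.3% (median 66.2%, against 52.7% for all). The first listed Ldha start had 7 matches, a number reached by 0.301% of all promoters. Each CACGTG there counts as a pair of overlapping matches, because it reads the same on both strands. A kappaB consensus, searched on both strands, was found in the promoters of 0 of 10 members, beside 5.14% of all genes and 4.51% of all promoters. With shares this low, 0 of 10 does not set the members apart. A match is a string of letters and says nothing of binding. The 250 bases before the start follow, 5' to 3' on the gene's own strand, with HIF core matches in capitals, for Hk2 (early) and for Pgk1, Ldha and Slc16a3 (late).
Hk2, chr6:82774455-82774704, minus strand: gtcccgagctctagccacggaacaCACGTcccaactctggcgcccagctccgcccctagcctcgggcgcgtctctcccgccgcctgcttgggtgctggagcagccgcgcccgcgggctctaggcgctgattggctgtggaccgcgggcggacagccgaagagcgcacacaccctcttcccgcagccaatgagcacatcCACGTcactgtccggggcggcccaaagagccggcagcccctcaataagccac
Pgk1, chrX:106186850-106187099, plus strand: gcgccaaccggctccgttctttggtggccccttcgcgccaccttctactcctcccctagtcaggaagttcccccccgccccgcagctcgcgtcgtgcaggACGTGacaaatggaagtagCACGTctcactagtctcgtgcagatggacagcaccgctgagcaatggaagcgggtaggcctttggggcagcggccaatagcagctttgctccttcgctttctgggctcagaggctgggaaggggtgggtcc
Ldha, chr7:46845554-46845803, plus strand: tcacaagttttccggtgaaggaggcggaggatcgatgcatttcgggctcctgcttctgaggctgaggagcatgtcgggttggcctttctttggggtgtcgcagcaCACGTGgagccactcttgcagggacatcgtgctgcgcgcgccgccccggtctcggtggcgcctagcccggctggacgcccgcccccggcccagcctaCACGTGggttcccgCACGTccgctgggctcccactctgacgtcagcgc
Slc16a3, chr11:120948817-120949066, plus strand: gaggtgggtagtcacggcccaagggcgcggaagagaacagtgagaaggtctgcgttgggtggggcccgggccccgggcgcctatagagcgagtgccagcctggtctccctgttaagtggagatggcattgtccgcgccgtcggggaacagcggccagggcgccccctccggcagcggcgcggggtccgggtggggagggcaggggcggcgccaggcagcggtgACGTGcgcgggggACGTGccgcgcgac
In these stretches Hk2, Pgk1 and Slc16a3 each show 2 matches and Ldha shows 5, so early and late members both carry the element.

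Hif1a (ENSMUSG00000021109.13, chromosome 12, 73901375 to 73947530, plus strand, GRCm38) encodes the oxygen-regulated subunit of HIF-1. In WT cells it had 94.6, 75.9 and 94.2 normalized CPM in the 3 Unstim. cultures, 875, 999 and 795 at LPS 3h, 362, 385 and 719 at LPS 24h and 311, 260.1 and 220.5 at LPS 24h->LPS 3h. In Irg1-/- cells the same groups had 116, 74.5 and 201, then 1042, 679 and 738, then 346, 370.1 and 418, then 373, 508 and 644. Every LPS library lay above every Unstim. library of either genotype, and the LPS 3h groups had the highest means of the 8. At LPS 3h the log2 rise of Hif1a was 3.33 in WT cells (SE 0.35, n = 3 per group, adjusted p = 3.53e-09 by the quasi-likelihood test of edgeR) and 2.65 in Irg1-/- cells (SE 0.34, adjusted p = 1.86e-07). Within prefix 4 the WT difference was 3.18, from 1 LPS 3h library and 3 Unstim. libraries. At LPS 24h it was still 2.47 above Unstim. in WT and 1.53 in Irg1-/- cells (adjusted p = 1.33e-06 and 0.000952). Without both shallow Irg1-/- Unstim. libraries the second value was 0.93 and no longer past the threshold (adjusted p = 0.264). WT LPS 24h replicate 3, at 719, was far above the other cultures of its group. The fall from LPS 3h to LPS 24h was -0.86 in WT (adjusted p = 0.0372) and -1.12 in Irg1-/- cells (adjusted p = 0.00726). The WT fall was -1.35 without that library, and it missed the threshold without WT LPS 3h replicate 1 or 2 or without WT LPS 24h replicate 1 or 2 (-0.94, -0.83, -0.73 and -0.77).

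Slc2a1 (ENSMUSG00000028645.10, chromosome 4, 119108711 to 119137983, plus strand) encodes GLUT1, the main glucose importer of many cell types. WT libraries had 29.4, 27.5 and 33.3 normalized CPM at Unstim., 122, 94.7 and 88.2 at LPS 3h, 166, 143 and 85.1 at LPS 24h and 206, 177 and 124 at LPS 24h->LPS 3h. Levels in Irg1-/- libraries were 21.04, 28.5 and 14.5, then 121, 146 and 76.2, then 155, 136 and 84.8, then 176, 146 and 110.3 in the same order. The 18 LPS libraries were all above the 6 Unstim. libraries, and the 6 LPS groups, ordered by their means, overlapped from each to the next. The rise at LPS 3h was 1.76 in WT and 2.43 in Irg1-/- cells, and at LPS 24h it was 2.12 and 2.57 (log2, SE 0.33 to 0.34, adjusted p from 8.6e-05 down to 9.24e-07). From LPS 3h to LPS 24h the log2 difference was 0.37 in WT (95% interval -0.28 to 1.02) and 0.13 in Irg1-/- cells (-0.52 to 0.78), and neither passed the threshold.

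The 3 members of the first steps and their control behaved differently from one another after 3 h. Hk2 (ENSMUSG00000000628.10, chromosome 6, 82725025 to 82774454, minus strand) encodes hexokinase 2, which phosphorylates glucose. It had 38.3, 29.4 and 35.8 normalized CPM in WT Unstim. libraries, 897, 807 and 1071 at LPS 3h, 237, 201 and 267 at LPS 24h and 86.2, 92.6 and 82.7 at LPS 24h->LPS 3h. Its Irg1-/- values were 40.5, 35.8 and 40.2, then 778, 707 and 929, then 284, 274 and 361, then 68.1, 115 and 154. The 4 treatments did not overlap in either genotype, with LPS 3h highest, then LPS 24h, then LPS 24h->LPS 3h, then Unstim. The increase at LPS 3h was 4.74 in WT (SE 0.31, adjusted p = 1.71e-13) and 4.37 in Irg1-/- cells (SE 0.31, adjusted p = 8.59e-13). It was 2.77 and 2.98 at LPS 24h, and from LPS 3h to LPS 24h Hk2 fell by 1.98 in WT and by 1.39 in Irg1-/- cells (adjusted p = 1.81e-06 and 0.000174). Within prefixes 1, 2 and 4, each with 1 library per group, the WT difference was -1.92, -2.002 and -2.006.

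Pfkfb3 (ENSMUSG00000026773.19, chromosome 2, 11471433 to 11554077, minus strand) encodes an enzyme that makes fructose 2,6-bisphosphate, the strongest activator of phosphofructokinase. In WT libraries it had 6.25, 12.7 and 14.3 normalized CPM at Unstim., 179.9, 135 and 153 at LPS 3h, 263, 193 and 241 at LPS 24h and 102, 90.5 and 88.2 at LPS 24h->LPS 3h. The Irg1-/- libraries had 12.3, 16.6 and 6.26, then 158, 129.7 and 158, then 354, 307 and 225, then 156, 146 and 195. Unlike Hk2, Pfkfb3 had its highest mean at LPS 24h in both genotypes. It rose by 3.81 in WT and 3.69 in Irg1-/- cells at LPS 3h and by 4.39 and 4.68 at LPS 24h (log2, adjusted p between 4.31e-11 and 5.37e-10). The further difference between the times was 0.58 in WT (adjusted p = 0.156) and 0.99 in Irg1-/- cells (adjusted p = 0.0136), and the second lost the threshold without Irg1-/- LPS 3h replicate 2 or Irg1-/- LPS 24h replicate 1 or 2 (0.82, 0.82 and 0.89).

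Pfkp (ENSMUSG00000021196.13, chromosome 13, 6579768 to 6648777, minus strand) encodes the platelet isoform of phosphofructokinase. Of the members past the threshold at LPS 3h, only Pfkp overlapped with Unstim. at LPS 24h. WT libraries had 26.7, 22.2 and 29.0 normalized CPM at Unstim., 113, 97.8 and 111 at LPS 3h, 31.8, 23.1 and 21.5 at LPS 24h and 108, 43.2 and 36.4 at LPS 24h->LPS 3h. Its Irg1-/- values were 22.6, 30.9 and 21.9, then 109, 108 and 91.3, then 25.0, 16.7 and 19.9, then 42.2, 41.6 and 45.9. Pfkp at LPS 24h overlapped with Unstim. in both genotypes, whereas LPS 3h lay above both. The rise at LPS 3h was 2.04 in WT and 2.03 in Irg1-/- cells (adjusted p = 8.76e-06 and 1.02e-05), and at LPS 24h the difference from Unstim. was -0.03 (95% interval -0.68 to 0.62) and -0.29 (-0.94 to 0.36).

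Of the later steps, Aldoa (ENSMUSG00000030695.13, chromosome 7, 126795234 to 126800751, minus strand) encodes aldolase A, which splits fructose 1,6-bisphosphate. In WT cultures it had 306, 314 and 360.4 normalized CPM at Unstim., 326, 275 and 272 at LPS 3h, 542, 449.7 and 125 at LPS 24h and 654, 512 and 263 at LPS 24h->LPS 3h. The Irg1-/- cultures had 273, 269.5 and 198, then 302, 304 and 244, then 416, 514 and 298, then 304, 343 and 252. The 8 groups, ordered by their means, overlapped from each to the next, and WT LPS 24h replicate 3 was the lowest library of all. At LPS 24h the log2 difference from Unstim. was 0.19 in WT (95% interval -0.54 to 0.92), 0.54 without that library and -1.38 within prefix 4, which holds only that library of LPS 24h, and it was 0.73 in Irg1-/- cells (adjusted p = 0.203).

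Pgk1 (ENSMUSG00000062070.12, chromosome X, 106187100 to 106203699, plus strand) encodes phosphoglycerate kinase, the first enzyme of the pathway to make ATP, and was the member with the fewest reads, 7 to 424 per library. Its WT values were 4.38, 3.82 and 6.14 normalized CPM at Unstim., 7.84, 8.30 and 10.6 at LPS 3h, 19.7, 16.6 and 4.11 at LPS 24h and 19.1, 29.6 and 23.5 at LPS 24h->LPS 3h. In the Irg1-/- cultures it had 1.09, 9.42 and 1.82, then 4.02, 7.94 and 7.39, then 24.0, 20.96 and 18.0, then 19.8, 16.3 and 13.4. Levels were highest in the groups exposed for 24 h, with the exception of WT LPS 24h replicate 3, which lay among the Unstim. libraries. The rise at LPS 24h was 2.43 in Irg1-/- cells (SE 0.54, adjusted p = 0.00171), and it was 3.75 without Irg1-/- Unstim. replicate 2. The WT rise was 1.48 (SE 0.52, adjusted p = 0.046), a call lost without any 1 of the 3 WT Unstim. libraries or without WT LPS 24h replicate 1 or 2 (1.08 to 1.68) and under 7 other settings. At LPS 3h the WT difference was 0.89 (adjusted p = 0.197). The Irg1-/- difference at LPS 3h was 0.72 (adjusted p = 0.328), and it was 2.12 and past the threshold without Irg1-/- Unstim. replicate 2. The copies Pgk1-rs7 and Pgk2 held 220 and 0 reads over all libraries.

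Eno1 (ENSMUSG00000063524.13, chromosome 4, 150236721 to 150248879, plus strand) encodes enolase 1, which forms phosphoenolpyruvate. WT libraries had 44.0, 40.4 and 40.1 normalized CPM at Unstim., 68.2, 77.6 and 51.3 at LPS 3h, 173, 134 and 73.6 at LPS 24h and 170.1, 179.5 and 84.6 at LPS 24h->LPS 3h. Irg1-/- libraries had 56.4, 39.6 and 46.6, then 70.2, 62.6 and 40.3, then 138, 146 and 128, then 111, 99.7 and 95.4. All LPS 24h libraries lay above all Unstim. libraries of the same genotype. At LPS 3h the log2 difference from Unstim. was 0.66 in WT (95% interval 0.03 to 1.30, adjusted p = 0.105) and 0.28 in Irg1-/- cells (-0.36 to 0.92). The rise at LPS 24h was 1.61 in WT and 1.53 in Irg1-/- cells (SE 0.32, adjusted p = 0.000322 and 0.000692). Between LPS 3h and LPS 24h it rose by 0.95 and 1.25, and the WT call was lost without WT LPS 3h replicate 1 or 3 or WT LPS 24h replicate 1 or 2 (0.89, 0.71, 0.60 and 0.82).

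Ldha and Slc16a3 stand at the end of the pathway. Ldha (ENSMUSG00000063229.14, chromosome 7, 46841475 to 46855627, plus strand) encodes the lactate dehydrogenase subunit that favours lactate formation. Levels in WT libraries were 70.02, 67.6 and 108 normalized CPM at Unstim., 157, 129.6 and 140.3 at LPS 3h, 720.4, 445 and 226 at LPS 24h and 494, 549 and 292 at LPS 24h->LPS 3h. Values in Irg1-/- cells were 145, 108 and 90.9, then 145, 114 and 95.9, then 488, 476 and 277, then 516, 350.5 and 282. The 12 libraries exposed for 24 h all lay above the other 12. At LPS 3h the log2 difference from Unstim. was 0.80 in WT (95% interval 0.08 to 1.51, adjusted p = 0.0809) and 0.05 in Irg1-/- cells (-0.66 to 0.76). Ldha passed the threshold in WT without WT Unstim. replicate 3 (1.08). At LPS 24h it rose by 2.50 in WT (SE 0.37, adjusted p = 4.6e-06) and by 1.85 in Irg1-/- cells (SE 0.36, adjusted p = 0.000311), and within prefix 4 the WT difference, which rests on WT LPS 24h replicate 3, was 1.49. The increase from LPS 3h to LPS 24h was 1.70 and 1.80 (adjusted p = 0.000434 and 0.000196).

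Slc16a3 (ENSMUSG00000025161.16, chromosome 11, 120948480 to 120960868, plus strand) encodes MCT4, which exports lactate. WT libraries had 9.08, 14.3 and 13.7 normalized CPM at Unstim., 30.4, 21.6 and 20.9 at LPS 3h, 153, 113 and 92.2 at LPS 24h and 137, 156 and 86.2 at LPS 24h->LPS 3h. Irg1-/- libraries had 12.9, 13.0 and 10.1, then 23.0, 22.4 and 21.8, then 105, 103 and 65.2, then 119.5, 82.6 and 73.0. It went up in steps without overlap, from Unstim. to LPS 3h and from LPS 3h to the groups exposed for 24 h. The first step was 0.97 in WT and 0.91 in Irg1-/- cells (log2, adjusted p = 0.0145 and 0.0228). It missed the threshold in WT without Unstim. replicate 1 (0.82) or LPS 3h replicate 1 (0.83) and in Irg1-/- cells without Unstim. replicate 3 (0.83). With the label prefix as a term it was 0.61 in WT and 0.39 in Irg1-/- cells, neither past the threshold, and within prefix 4 it was 0.78 in WT. From LPS 3h to LPS 24h it rose by 2.30 in WT (SE 0.31, adjusted p = 1.17e-06) and by 2.02 in Irg1-/- cells (SE 0.31, adjusted p = 6.45e-06), and within prefixes 1, 2 and 4 the WT differences were 2.32, 2.38 and 2.13.

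Most members did not pass the threshold between restimulated cells and LPS 24h cells. Hk2 was lower again in both genotypes and Pfkp was higher. Pfkfb3 was lower in both genotypes but passed the threshold in WT cells only. The differences of Ldha and Slc16a3 were close to 0. The restimulated cells also had fresh medium, a rest of 1 h and 3 further hours, so the second dose cannot be told apart from these. Against LPS 24h, WT cells had 1 member higher and 2 lower, beside 2.46% and 1.53% of all genes, and Irg1-/- cells had 1 higher and 1 lower, beside 3.44% and 1.70%. Hk2 fell by 1.43 in WT (SE 0.27, adjusted p = 0.00145) and by 1.45 in Irg1-/- cells (SE 0.27, adjusted p = 0.000763), and no restimulated library overlapped with LPS 24h. Pfkfb3 fell by 1.31 in WT cells (adjusted p = 0.012), and the call was lost without WT LPS 24h->LPS 3h replicate 2 (-1.24) or 3 (-1.25). The Irg1-/- difference of Pfkfb3 was -0.83 (95% interval -1.47 to -0.20, adjusted p = 0.137), with every restimulated library below every LPS 24h library. Of all genes, 15.5% lay below without overlap in that Irg1-/- comparison. Pfkp rose by 1.29 in WT and 1.07 in Irg1-/- cells (adjusted p = 0.0161 and 0.043). The WT value was 0.68 without WT LPS 24h->LPS 3h replicate 1, whose 108 normalized CPM stood apart from 43.2 and 36.4, and the call was also lost without WT LPS 24h replicate 2 (1.26) or 3 (1.24). The Irg1-/- call was lost without any 1 of the 6 libraries compared (0.98 to 1.24). Without WT LPS 24h replicate 3 the WT counts were 0 higher and 2 lower, and without WT LPS 24h->LPS 3h replicate 3 they were 1 and 1. When only the compared groups entered the fit, 0 members passed the threshold in WT cells in either direction. Ldha differed by -0.06 in WT (95% interval -0.76 to 0.65) and -0.11 in Irg1-/- cells (-0.82 to 0.59), and Slc16a3 by 0.09 (-0.52 to 0.69) and 0.01 (-0.60 to 0.62).

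Tolerized cells were also set against cells that met LPS for the first time, both 3 h after a dose. Ldha, Slc16a3, Eno1 and Pgk1 were higher in tolerized cells of both genotypes, and Hk2 was lower. Counts were 4 higher and 2 lower in WT cells, beside 12.4% and 13.1% of all genes, and 4 and 2 in Irg1-/- cells, beside 13.1% and 14.1%. Hk2 had the largest difference, -3.41 in WT (SE 0.29, adjusted p = 9.72e-10) and -2.84 in Irg1-/- cells (SE 0.29, adjusted p = 8.94e-09). Within prefix 2, with 1 library per group, it was -3.12 in WT and -3.51 in Irg1-/- cells. Hif1a was lower in tolerized WT cells by 1.75 (log2 difference -1.75, adjusted p = 0.000152). In Irg1-/- cells the Hif1a difference was -0.69 and missed the threshold (adjusted p = 0.107). Every tolerized Irg1-/- library still lay below every Irg1-/- LPS 3h library (373 to 644 against 679 to 1042 normalized CPM). Of all genes, 21.2% lay below without overlap in that Irg1-/- comparison. Whether the fall of Hif1a differed between the genotypes was not tested. Pfkp fell below LPS 3h in Irg1-/- cells (-1.25, adjusted p = 0.00378). In WT cells its difference of -0.78 (adjusted p = 0.0678) became -1.48 and passed without WT LPS 24h->LPS 3h replicate 1. Ldha was higher by 1.64 and 1.69 (adjusted p = 0.000832 and 0.000554), and Slc16a3 by 2.38 and 2.03 (adjusted p = 1.26e-06 and 9.51e-06). Eno1 was higher by 1.14 in WT, a call lost without WT LPS 3h replicate 3 (0.94), and by 0.82 in Irg1-/- cells (adjusted p = 0.048), a call lost without Irg1-/- LPS 3h replicate 2 or 3 or without any 1 of the Irg1-/- LPS 24h->LPS 3h libraries (0.60 to 0.85). Pgk1 was higher by 1.43 and 1.37 (adjusted p = 0.0388 and 0.0492), and either call was lost without any 1 of the 6 libraries compared (1.23 to 1.53 in WT and 1.07 to 1.51 in Irg1-/- cells). The comparisons of LPS 24h->LPS 3h with LPS 24h and with LPS 3h share the restimulated libraries.

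**Figure D3:**
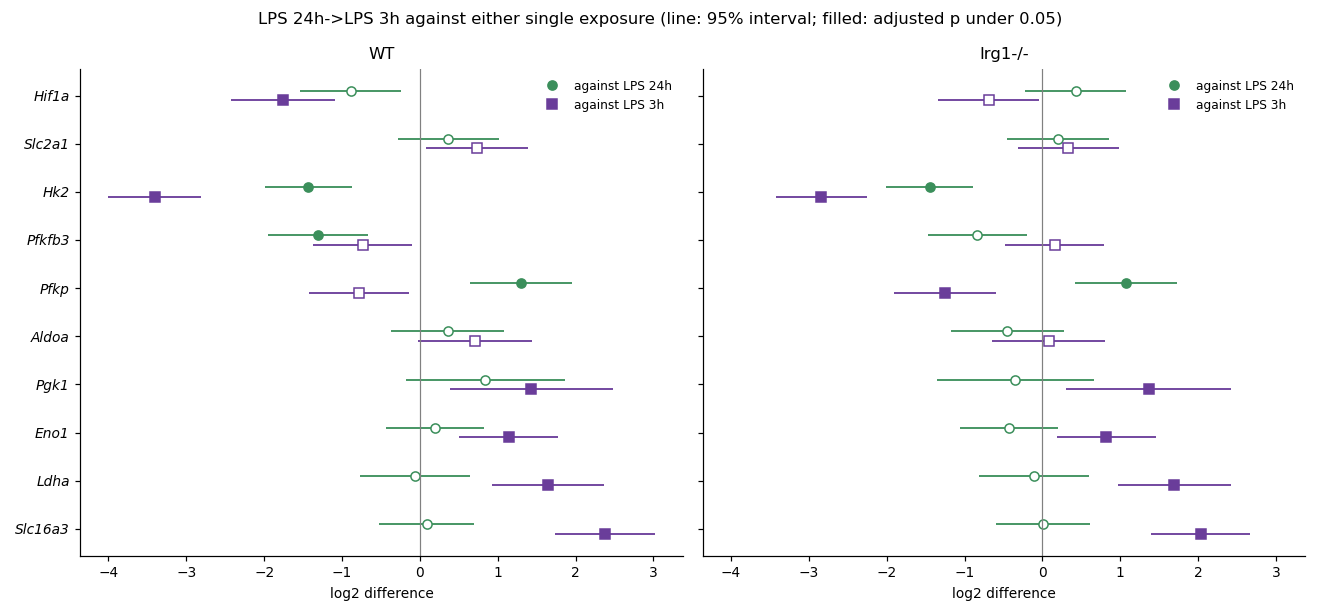
Log2 difference (x) of LPS 24h->LPS 3h from LPS 24h (circles) and from LPS 3h (squares) for each member (y), WT on the left and Irg1-/- on the right, with lines for 95% intervals and filled symbols for adjusted p under 0.05. Hk2 is below both references in both genotypes, whereas Ldha and Slc16a3 sit near 0 against LPS 24h and above LPS 3h.

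Whether loss of Irg1 altered these genes was compared within each treatment. No member passed the threshold in any of the 4 treatments, and the differences of Hif1a and Pfkfb3 in tolerized cells were the largest of the 40 when all libraries were kept. The number called among all genes tested was small too, 0.0421% at Unstim., 0.00842% at LPS 3h, 0.598% at LPS 24h and 0.118% at LPS 24h->LPS 3h. Over the 40 member tests, edgeR's quasi-likelihood test and DESeq2's Wald test each called 0, and edgeR gave an unadjusted p under 0.05 for 2. Log2 differences, Irg1-/- minus WT, ran from -0.67 (Aldoa, LPS 24h->LPS 3h) to 0.95 (Hif1a, LPS 24h->LPS 3h). The 95% intervals of 38 tests held 0, and over all 40 they reached from -1.56 to 1.66, with both of these bounds from Pgk1. For the mean over the 3 LPS treatments 0 members were called by either tool, 1 had an unadjusted p under 0.05 (Pfkfb3, log2 difference 0.37, 95% interval 0.00 to 0.73), and 0.337% of all genes were called.

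In tolerized cells the 3 Irg1-/- libraries lay above the 3 WT libraries for Hif1a (373 to 644 against 220.5 to 311 normalized CPM) and for Pfkfb3 (146 to 195 against 88.2 to 102). Of all genes, 6.45% had every Irg1-/- library above every WT library in that comparison. The log2 difference of Hif1a was 0.95 (SE 0.32, adjusted p = 0.309) and that of Pfkfb3 0.82 (SE 0.31, adjusted p = 0.425). Within prefix 1 (2 Irg1-/- libraries and 1 WT library) they were 0.88 and 0.72, and within prefix 2 (1 and 1) they were 0.52 and 0.78. Hk2 at LPS 24h was also above without overlap, with a log2 difference of 0.38 (95% interval -0.17 to 0.93), and Aldoa at Unstim. was below, with -0.41 (-1.14 to 0.33). The shares of all genes without overlap in those directions were 7.51% and 5.09%. Hif1a differed by 0.57 at Unstim., -0.12 at LPS 3h and -0.37 at LPS 24h, and the last value was 0.05 without WT LPS 24h replicate 3. The Unstim. value, which did not pass under any alternative, ran from 0.11 without Irg1-/- Unstim. replicate 3 to 0.84 without Irg1-/- Unstim. replicate 2, and it was 1.19 without both shallow Irg1-/- Unstim. libraries.

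**Figure D4:**
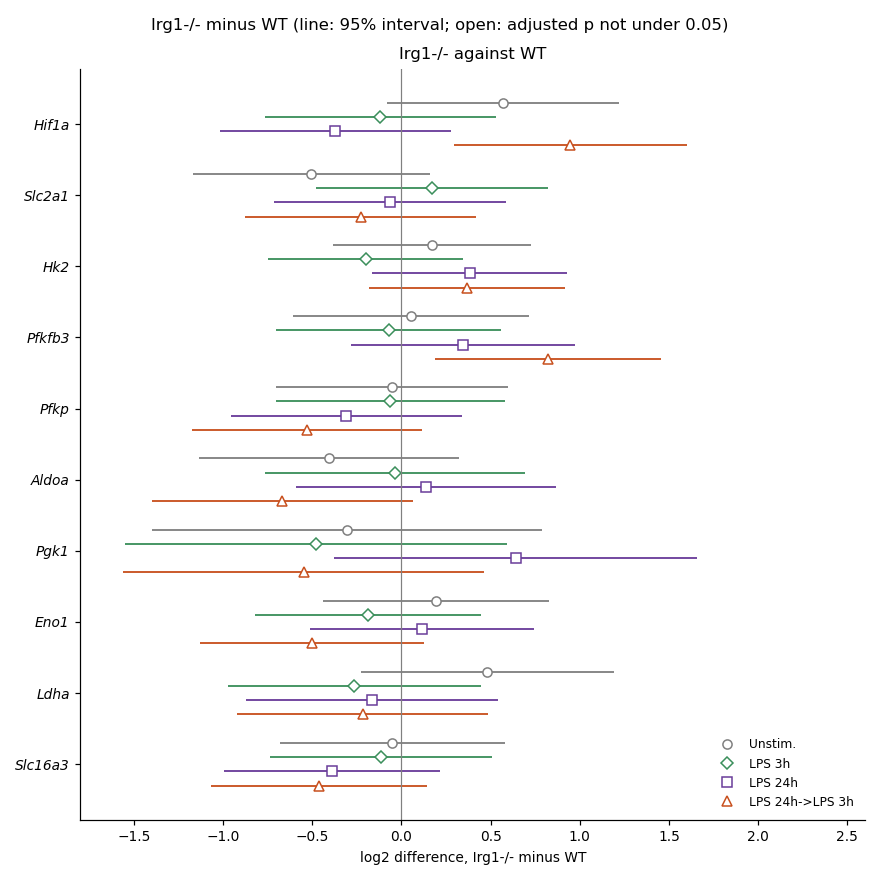
Log2 difference, Irg1-/- minus WT (x), of each member (y) in the 4 treatments, with lines for 95% intervals and open symbols because no adjusted p was under 0.05. Only the intervals of Hif1a and Pfkfb3 at LPS 24h->LPS 3h leave out 0.

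The difference between the genotypes was tested directly for the responses against Unstim. and for restimulation against LPS 24h. It was not tested for LPS 24h or LPS 24h->LPS 3h against LPS 3h. For LPS 3h against Unstim., 0 members passed by edgeR or DESeq2 (0 at an unadjusted p under 0.05) and 0.00842% of all genes did. For LPS 24h against Unstim. 0 members passed (1, Hif1a, at an unadjusted p under 0.05), beside 0.210% of all genes. For LPS 24h->LPS 3h against LPS 24h 0 passed (again 1, Hif1a), beside 0.00842%. In that last response Hif1a went from LPS 24h by -0.89 in WT (adjusted p = 0.122) and by 0.43 in Irg1-/- cells (adjusted p = 0.6), a difference of 1.32 (SE 0.45, adjusted p = 0.341). Leaving out WT LPS 24h replicate 3 gave 0.92. Within prefixes 1, 2 and 4 the WT part was -0.22, -0.56 and -1.71, and within prefix 1 the Irg1-/- part was 0.60.

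The other glycolysis genes, a list of 19 that were all tested, gave counts at LPS 3h near the share of all genes and higher counts at LPS 24h, and the difference between the times in these counts was not tested. At LPS 24h 9 of 19 rose in WT and 10 of 19 in Irg1-/- cells and none fell, with median log2 fold changes of 1.03 and 1.05 (0.00 for all genes in both), while 9.25% and 7.31% of all genes rose. At LPS 3h 4 rose and 2 fell in WT cells and 3 rose and 3 fell in Irg1-/- cells, with medians of -0.17 in both (-0.18 and -0.20 for all genes), while 15.8% and 17.0% of all genes rose and 16.3% and 18.9% fell. From LPS 3h to LPS 24h 7 rose and 1 fell in WT and 10 rose and 1 fell in Irg1-/- cells, and the 1 that fell was Slc2a6 in both. Tpi1 (triosephosphate isomerase) had 80.3 ± 17.4 normalized CPM (SD, n = 3) at Unstim., 71.5 ± 20.7 at LPS 3h and 413 ± 108 at LPS 24h in WT cells, a rise of 2.36 at LPS 24h (log2, adjusted p = 8.88e-07), and it rose by 2.13 in Irg1-/- cells. Gapdh, Pgam1 and Pkm, which encode the next enzymes down to pyruvate, rose at LPS 24h by 1.99, 1.21 and 1.48 in WT and by 1.33, 1.05 and 1.42 in Irg1-/- cells, and none of these passed the threshold at LPS 3h. Gpi1, whose enzyme follows hexokinase, fell at LPS 3h by 0.88 in WT and 0.84 in Irg1-/- cells before it rose at LPS 24h by 1.13 and 1.42.

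Isoforms and relatives of the members did not all move with them. Pfkl, the liver isoform of phosphofructokinase, rose by 2.45 in WT and 2.29 in Irg1-/- cells at LPS 24h, when Pfkp overlapped with unstimulated cells. Slc2a6, a transporter of the glucose transporter family, went from 3.27 ± 1.64 normalized CPM in WT Unstim. cells to 216 ± 47.2 at LPS 3h (log2 fold change 6.01, adjusted p = 4.05e-13) and back to 22.6 ± 3.37 at LPS 24h. Its rise at LPS 3h in Irg1-/- cells was 5.88, and there it was the only gene of the list to rise again on restimulation (1.47 against LPS 24h, adjusted p = 0.00625). In WT cells no gene of the list passed against LPS 24h. Slc16a1, the lactate transporter MCT1, rose at LPS 3h by 2.03 and 1.499 in WT and Irg1-/- cells, and Hk1, hexokinase 1, by 1.23 and 1.82. Pfkfb4, of the same family as Pfkfb3, fell at LPS 3h by 1.34 in WT and 2.39 in Irg1-/- cells, and Pfkfb2 by 3.23 in Irg1-/- cells.

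**Figure D5:**
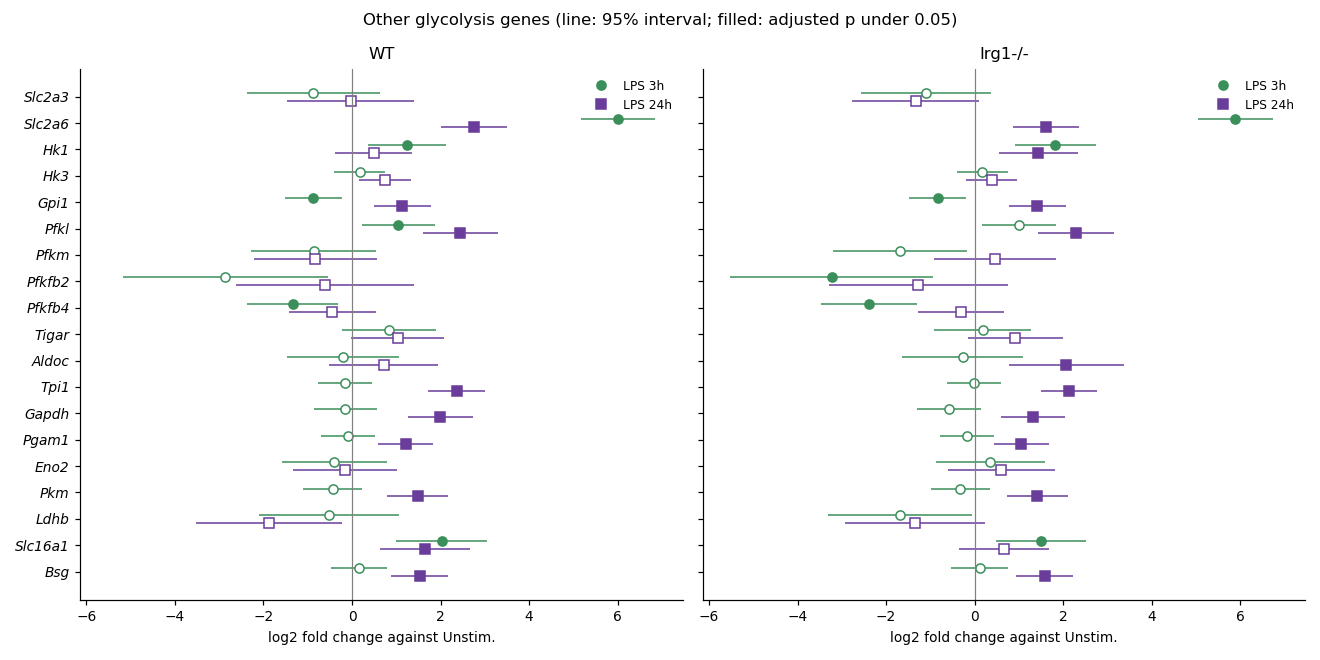
Log2 fold change against Unstim. (x) of the 19 other glycolysis genes (y) at LPS 3h (circles) and LPS 24h (squares), WT on the left and Irg1-/- on the right, with lines for 95% intervals and filled symbols for adjusted p under 0.05. Tpi1, Gapdh, Pgam1 and Pkm are near 0 at LPS 3h and above it at LPS 24h, and Slc2a6 is highest at LPS 3h (6.01 in WT).

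Genes that set the fate of pyruvate gave counts near or under the share of all genes. Of 12 tested, 1 rose and 1 fell at LPS 3h in both genotypes (all genes 15.8% and 16.3% in WT and 17.0% and 18.9% in Irg1-/- cells), namely Dld (a subunit shared by mitochondrial dehydrogenase complexes; 0.89 in WT) and Pdp1 (a phosphatase that activates pyruvate dehydrogenase; -2.44 in WT). At LPS 24h 0 of 12 passed in WT cells, where Pdk1 (the kinase that inhibits pyruvate dehydrogenase and a known HIF-1 target) differed by 0.85. Pdk1 rose by 0.91 in Irg1-/- cells and Mpc1, a subunit of the mitochondrial pyruvate carrier, fell by 1.38. At LPS 24h the shares of all genes were 9.25% higher and 6.98% lower in WT and 7.31% and 6.38% in Irg1-/- cells, and the list medians were 0.08 in both genotypes.

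Among 14 tested partners and regulators of HIF, out of a list of 15, Egln3 and Cited2 moved most. Egln3 (PHD3, a prolyl hydroxylase that marks HIF-1α for degradation and a known HIF target) rose at LPS 24h by 5.13 in WT (adjusted p = 1.4e-05) and 4.07 in Irg1-/- cells (adjusted p = 0.000306), from means of 0.442 and 0.816 normalized CPM at Unstim. to 17.1 and 14.3. Its low reads at Unstim. make these folds depend on the prior count. Cited2, which competes with HIF-1α for a coactivator, rose at LPS 3h by 2.14 and 1.81 and lay below Unstim. at LPS 24h by 2.03 and 2.19 (log2 differences -2.03 and -2.19). Cul2, part of the ligase that tags HIF-1α, rose at LPS 3h by 1.30 and 1.22. Counts over the list were 2 up and 1 down at LPS 3h and 1 up and 1 down at LPS 24h in both genotypes, which lies near or under the shares of all genes (15.8% up and 16.3% down in WT and 17.0% and 18.9% in Irg1-/- cells at LPS 3h, and 9.25% and 6.98%, then 7.31% and 6.38%, at LPS 24h). The 1 that fell at LPS 3h was Arnt, the partner of HIF-1α, in WT (-0.75) and Egln1 in Irg1-/- cells (-0.87).

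Of 19 other HIF target genes, 18 were tested. In WT cells 5 rose and 1 fell at LPS 3h (median -0.30) and 7 rose and 1 fell at LPS 24h (median 0.44), and in Irg1-/- cells 4 rose and 4 fell (median -0.02), then 6 and 1 (median 0.53). Of all genes, 15.8% rose and 16.3% fell at LPS 3h in WT and 17.0% and 18.9% in Irg1-/- cells, so the Irg1-/- counts at LPS 3h lie near those shares, and at LPS 24h the shares were 9.25% and 6.98%, then 7.31% and 6.38%. The mitophagy receptor Bnip3 and Ankrd37 rose at LPS 24h. Bnip3 was at 18.0 ± 0.535 normalized CPM at Unstim., 12.8 ± 2.37 at LPS 3h and 112 ± 11.1 at LPS 24h in WT cells, and it rose by 2.53 at LPS 24h in Irg1-/- cells (adjusted p = 1.06e-07). Ankrd37 rose by 3.29 and 2.88 after it had fallen by 1.86 at LPS 3h in Irg1-/- cells. Adm (adrenomedullin) was an early gene that came down. It rose at LPS 3h by 3.29 in WT and 2.43 in Irg1-/- cells and fell by 3.06 in each from LPS 3h to LPS 24h. Ddit4, an inhibitor of mTORC1 signalling, rose by 4.27 at LPS 3h in WT cells. In WT cells the 1 that fell at LPS 24h was Ndrg1 (-1.99). Vegfa, the best known HIF target outside metabolism, differed from Unstim. by 0.03 in WT and 0.05 in Irg1-/- cells at LPS 24h (95% intervals -0.64 to 0.69 and -0.62 to 0.71) and fell by 1.05 at LPS 3h in Irg1-/- cells. In none of the 4 lists did a gene pass the threshold between genotypes in any treatment.

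Across the 8 group means of log2 normalized CPM, Pearson's r was 0.98 for Eno1 with Ldha, Eno1 with Slc16a3 and Ldha with Slc16a3, the highest of the 45 pairs. Pgk1 had r of 0.93 with Eno1, 0.91 with Slc16a3 and 0.88 with Ldha, near the 0.92 of Slc2a1 with Pfkfb3. Among the members Hif1a was closest to Hk2 (r = 0.92) and had r of 0.33 with Ldha. These values describe 8 points that share libraries and treatments. Among 10770 genes with a mean of at least 10 counts, the 5 most like Hif1a were Casp1, Ubash3b, Slc39a14, St7 and Hspa13 by the 8 means (r = 0.99 for each, and 0.86 to 0.93 over the 24 libraries). Over the 24 libraries they ranked 90, 5, 4, 59 and 153 in that order, so the choice of Casp1, St7 and Hspa13 rests on the group means. The 5 most like the mean standardized profile of the 10 members were Ms4a4c, Tspo, Prdx5, Csprs and Procr by the 8 means (r = 0.98 to 0.99, and 0.84 to 0.98 over the libraries, where they ranked 12, 1, 2, 137 and 6).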

How the data were processed

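RNA was sequenced from the 3' ends of transcripts (digital gene expression) in 24 libraries of 8 groups, 3 cultures each. Per the labels and the study's methods the authors aligned reads with STAR to mm10. The table they deposited holds raw counts per Ensembl gene and 5 summary lines. The counting program, its strand setting and the annotation are not given in the sources used here. Genes took 48.0% to 59.4% of a column, and the summary lines were left out of library sizes. No molecular identifiers are named, so duplicate reads were not told apart.

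Counts of 22165 genes were taken as deposited, filtered with edgeR's filterByExpr to 11878 and fitted with edgeR 4.0.16 in R 4.3.3 (TMM factors, 1 term per group, quasi-likelihood F-test, Benjamini-Hochberg adjustment over all genes tested, threshold 0.05). The standard error is the absolute log2 fold change divided by the square root of F. Groups came from the sample labels. DESeq2 1.42.0 and other settings were alternatives, whose effects are given at the end. The procedure was tested on simulated data. The members and the 4 gene lists were chosen with earlier results of these data known. Named genes were the members, near-identical copies, up to 2 genes at either end of the log2 fold changes past the threshold, per list and comparison, a few fixed pathway genes (Gapdh, Pkm, Gpi1, Tpi1, Pgam1, Egln3, Vegfa, Pdk1), and the 5 genes most like Hif1a and most like the mean member profile by Pearson's r over the 8 group means. Some genes of the marker and gene lists are not reported here by name.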

Additional observations from a re-analysis of the deposited data

How the results depend on the processing

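Of 100 member results in the treatment comparisons (10 members in 10 comparisons), 59 passed the threshold, and 37 of those did so under every alternative run. Over all alternatives, called results kept their direction and side of the threshold 803 times and lost the threshold 96 times, and none reversed. Results not called kept theirs 557 times, reversed 47 times and passed 17 times. In no alternative was a member called between the genotypes. The alternatives were DESeq2 (its size factors within edgeR, or its own Wald test), no filter or a mean of at least 10 counts, the compared groups only, TMM factors without the 20 genes with the most counts, the label prefix as a term, the replicate block, both together and each culture left out. Leaving out both shallow Irg1-/- Unstim. libraries was chosen after the data had been seen. DESeq2's size factors moved the median of all genes by -0.105 for Irg1-/- LPS 24h and by -0.112 for Irg1-/- LPS 24h->LPS 3h, each against LPS 3h.

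The label prefix as a term lost 13 calls and gained 1. Where the compared Irg1-/- groups share no prefix, the term drew on other groups. With it, and with the replicate block and prefix together, Aldoa reversed in WT LPS 24h against Unstim. (-0.68 and -0.49), in Irg1-/- LPS 3h against Unstim. (-0.64 and -0.37) and in Irg1-/- LPS 24h against Unstim. (-0.39 and -0.10). Pgk1 (-0.50 and -0.011), Eno1 (-0.32 and -0.25) and Ldha (-0.39 and -0.37) reversed in Irg1-/- LPS 3h against Unstim., Slc16a3 in Irg1-/- LPS 24h->LPS 3h against LPS 24h (-0.0089 and -0.012), Pfkfb3 (-0.11 and -0.12) and Aldoa (-0.13 and -0.083) in Irg1-/- LPS 24h->LPS 3h against LPS 3h, and Hif1a in Irg1-/- against WT at LPS 3h (0.36 and 0.34). None of these had passed the threshold. The same 2 settings left 5 and 4 members higher in Irg1-/- LPS 24h against Unstim., 1 and 2 against LPS 3h, and 1 and 2 in Irg1-/- LPS 24h->LPS 3h against LPS 3h. The last count was 2 with DESeq2's size factors, a mean of at least 10 counts or DESeq2's Wald test, and Aldoa there became -0.032 with DESeq2's size factors and its Wald test. DESeq2's Wald test gave 4 members lower in WT LPS 24h->LPS 3h against LPS 3h, and the compared groups only gave 0 higher and 0 lower in WT LPS 24h->LPS 3h against LPS 24h. The cause was not tested.

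Whether replicate numbers pair the samples is not known. Correlations of deviations were over 0.1 for 5 of 36 pairs of same-numbered cultures of a genotype. They were over 0.1 for 11 of 48 same-numbered pairs across genotypes and for 13 of 168 pairs with other numbers. Among the groups exposed for 24 h, the replicate 3 cultures correlated with one another at 0.187 to 0.337. The replicate block alone lost 1 call (Pgk1, WT LPS 24h against Unstim., 1.40), gained 2, and moved Ldha to 0.0017 in WT LPS 24h->LPS 3h against LPS 24h (0.0076 with the prefix added).

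With 1 culture left out at a time, WT LPS 24h against Unstim. ranged from -0.23 to 0.032 for Pfkp and from -0.21 to 0.54 for Aldoa, and Aldoa against LPS 3h from -0.085 to 0.67. WT LPS 24h->LPS 3h against LPS 24h ranged from -0.0055 to 0.75 for Aldoa, -0.033 to 0.49 for Eno1, -0.33 to 0.42 for Ldha and -0.046 to 0.32 for Slc16a3, with 0 to 1 members higher and 1 to 2 lower, and 2 to 3 members were higher against LPS 3h. In Irg1-/- cells, LPS 3h against Unstim. ranged from -0.064 to 0.30 for Ldha, LPS 24h against LPS 3h from -0.16 to 0.31 for Slc2a1, LPS 24h->LPS 3h against LPS 24h from -0.34 to 0.098 for Ldha and -0.18 to 0.18 for Slc16a3 with 0 to 0 members higher, and against LPS 3h from -0.053 to 0.17 for Aldoa with 2 to 3 members higher. Irg1-/- against WT ranged from -0.32 to 0.017 for Hif1a at LPS 3h, from -0.57 to 0.054 for Hif1a at LPS 24h and from -0.77 to 0.15 for Pfkp at LPS 24h->LPS 3h. The lowest Pgk1 count, 7 reads, limits its folds against Irg1-/- Unstim. cells.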
